A study of Homo sapiens with 6 samples.

Results

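Forkhead genes encode transcription factors that share a winged-helix DNA-binding domain, the forkhead box, and are named FOX with a letter for the class and a number for the gene. In the gene count table of this study 46 of the 58395 rows had a symbol made of FOX, a class letter from A to S, a number and, in a few cases, a closing A or B, and these 46 rows are described here. The set covers 44 protein-coding genes and the processed pseudogenes FOXO1B and FOXO3B. RNA was sequenced from H1, an embryonic stem cell line made from a human blastocyst, in 3 groups of 2 libraries: wild type (WT), a BRPF1 knockout set named KO 1# and a BRPF1 knockout set named KO 2#. All 6 libraries carry the label hESCs, and no treatment, time point or passage is given for any group. The meaning of 1# and 2# is not given, nor whether each is 1 clone, how BRPF1 was edited or whether replicates were separate cultures, so the p-values measure the spread between these libraries, which may be technical.

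Total counts ran from 33421785 to 38098779 per library. Levels are given as CPM, read counts relative to sequencing depth, with depth set by TMM, a method that scales libraries on the bulk of the genes. BRPF1, a scaffold protein of histone acetyltransferase complexes with MOZ or MORF, had 1483 and 1111 counts in the WT pair, 1013 and 922 in the KO 1# pair and 702 and 701 in the KO 2# pair, and its log2 fold change of both knockout sets against WT was 0.08 ± 0.10 (standard error, adjusted p = 0.508). That value depends on the scaling: by library totals it was -0.66 (edgeR adjusted p = 7.15e-06) and by totals that omit the 20 most abundant genes -0.32 (edgeR adjusted p = 0.00760). With TMM the value was 0.22 in KO 1# (edgeR adjusted p = 0.0988) and -0.07 in KO 2# (edgeR adjusted p = 0.609), and neither was called. The direction of any BRPF1 change is thus not settled here, and gene counts cannot show an edit. By library totals the median log2 fold change of all tested genes shifted by -0.73, so any smaller rise given below depends on the scaling. The knockout libraries went against the stem cell label. All 8 pluripotent stem cell markers were lower in both knockout sets, their summed level being 6034 to 6228 CPM in the WT libraries against 20.5 to 39.3 CPM in the knockout libraries. POU5F1, which encodes OCT4, went from 1663 ± 116 CPM (WT, SD, n = 2) to 0.264 ± 0.300 CPM (knockout, SD, n = 4), and NANOG had 1 count over the 4 knockout libraries. All 10 fibroblast markers were higher, summing to 568 to 595 CPM in WT against 121717 to 133925 CPM in the knockout libraries, with LUM and FAP at 0 in WT. COL1A1, a chain of type I collagen, went from 72.7 ± 7.94 CPM (WT, SD, n = 2) to 83793 ± 3171 CPM (knockout, SD, n = 4), and COL3A1 from 0.0512 ± 0.0454 CPM (WT, SD, n = 2) to 6778 ± 562 CPM (knockout, SD, n = 4). Knockout therefore means the libraries labelled so throughout.

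Forkhead factors act at different places in development and in the cell. FOXH1 binds with SMAD2 and SMAD3 at targets of NODAL signalling, FOXA factors open chromatin in endoderm, and FOXC, FOXD1, FOXF and FOXL1 act in mesenchyme and mesoderm derivatives. FOXO factors are held in the cytoplasm by AKT phosphorylation when insulin or growth factor signalling is active, and otherwise enter the nucleus and activate genes of cell cycle arrest, stress resistance and metabolism. FOXM1 drives genes of the G2 phase and mitosis together with the MuvB complex, while FOXK and FOXP factors mostly repress. In embryonic stem cells FOXD3, FOXH1 and FOXO1 are known for parts in the pluripotent state or its exit.

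The start regions of 5 members are shown first, because the results turn on genes of 1 class that moved in opposite directions (FOXD1 and FOXD3) and on members that rose (FOXP4), fell (FOXO1) or were at 0 in the knockout libraries (FOXI3). Each is the 250 bases before the RefSeq transcript start on GRCh38.p14, 5′ to 3′ on the gene's strand, with CpG dinucleotides in capitals.
FOXD1 (chr5:73448778-73449027, minus strand): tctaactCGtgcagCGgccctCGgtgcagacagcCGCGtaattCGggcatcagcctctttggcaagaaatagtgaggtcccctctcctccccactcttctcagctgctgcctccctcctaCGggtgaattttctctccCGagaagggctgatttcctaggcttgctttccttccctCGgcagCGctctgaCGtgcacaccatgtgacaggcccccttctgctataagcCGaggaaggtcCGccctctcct
FOXP4 (chr6:41546131-41546380, plus strand): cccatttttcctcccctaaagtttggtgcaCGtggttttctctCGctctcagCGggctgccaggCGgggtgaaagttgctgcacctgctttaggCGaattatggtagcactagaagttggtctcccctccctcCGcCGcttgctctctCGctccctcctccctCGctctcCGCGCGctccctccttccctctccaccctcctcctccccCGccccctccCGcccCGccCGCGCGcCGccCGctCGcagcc
FOXD3 (chr1:63322317-63322566, plus strand): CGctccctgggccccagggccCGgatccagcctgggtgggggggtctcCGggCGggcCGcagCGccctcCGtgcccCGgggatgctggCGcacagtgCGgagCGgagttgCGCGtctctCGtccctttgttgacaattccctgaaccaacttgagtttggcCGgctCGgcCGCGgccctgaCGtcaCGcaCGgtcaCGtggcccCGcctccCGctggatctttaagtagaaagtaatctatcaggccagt
FOXI3 (chr2:88452694-88452943, minus strand): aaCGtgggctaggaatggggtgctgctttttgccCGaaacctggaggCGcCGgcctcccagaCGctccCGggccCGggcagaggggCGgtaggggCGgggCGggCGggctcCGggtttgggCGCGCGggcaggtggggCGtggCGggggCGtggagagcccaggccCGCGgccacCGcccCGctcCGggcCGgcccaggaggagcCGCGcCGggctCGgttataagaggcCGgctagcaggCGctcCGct
FOXO1 (chr13:40666642-40666891, minus strand): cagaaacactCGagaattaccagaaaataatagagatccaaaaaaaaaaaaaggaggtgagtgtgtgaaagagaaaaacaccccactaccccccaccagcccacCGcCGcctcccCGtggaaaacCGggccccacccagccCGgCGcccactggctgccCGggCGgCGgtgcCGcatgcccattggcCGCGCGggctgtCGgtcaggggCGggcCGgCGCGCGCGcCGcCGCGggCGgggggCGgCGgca

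The printed stretches hold 13 CpG in FOXD1, 21 in FOXP4, 24 in FOXD3, 31 in FOXI3 and 27 in FOXO1. The FOXD3 stretch overlaps an exon of FOXD3-AS1. RefSeq windows of 300 bases, from 250 before to 50 after the start, were matched by symbol for 34 of the 46 members and numbered 45, since some genes have several starts. Members not matched included FOXA2, FOXC2, FOXE3, FOXF1, FOXH1, FOXJ1, FOXL1, FOXM1, FOXN2, FOXO1B and FOXS1. The 45 windows had a median of 27 CpG and a GC content of 68.0%, against 14 CpG and 58.7% in all 35116 windows of the table. Windows of members called higher in the knockout libraries had a median of 32 CpG (19 windows of 10 genes), and those of members called lower had 29 (11 windows of 11 genes). The forkhead motif GTAAACA, searched on both strands, was in 2 of the 45 windows, those of FOXO4 and 1 start of FOXP1, a share of 4.44% against 3.42% of all windows. The shares for the CCAAT box (CCAAT) were 22.2% against 34.6%, for the cell cycle homology region (TTTGAA) 11.1% against 15.2%, for the E-box (CACGTG) 6.67% against 7.26%, and for the AP-1 motif (TGANTCA) 8.89% against 7.71%. The E-box matches were in FOXD3, FOXK1 and FOXP4, and the AP-1 matches in FOXA3, FOXO3, FOXO4 and FOXP1. No motif of the 5 contains another, and a match is only a description of the letters.

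Forkhead transcripts made up a small part of every library, and different genes supplied them in WT and in the knockout libraries. The 46 rows held 0.0997% and 0.1003% of the counts in WT and 0.0832% to 0.0870% in the knockout libraries. Scaled by TMM the order turned, with a family sum of 710 to 717 CPM in WT against 990.1 to 1007 CPM in the knockout libraries. The genes with a count numbered 43 or 44 of the 46 in each WT library, and 33 or 34 in each of the 4 knockout libraries. Compared per length, as RPKM over the GENCODE 29 exon union of each gene, FOXH1, FOXM1, FOXN3 and FOXO1 were the 4 highest members in both WT libraries, followed by FOXA3 in replicate 1 and FOXD3 in replicate 2. In all 4 knockout libraries the 5 highest were FOXS1, FOXC2, FOXD1, FOXP4 and FOXK1. FOXS1 led in KO 1# and FOXC2 in KO 2#. The leading 5 held 55.8% and 56.0% of the summed forkhead RPKM in WT and 66.0% to 67.8% in the knockout libraries. FOXS1 ranked 28 of 46 in WT and 1 in the knockout libraries, FOXC2 33 and 2, and FOXD1 25 and 3. In the other direction FOXH1 went from rank 1 to 35, FOXD3 from 5 to 37 and FOXM1 from 2 to 16. FOXP1 has an exon union of 36714 bases, the longest of the 46, so that its RPKM is low for its counts.

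**Figure D1:**
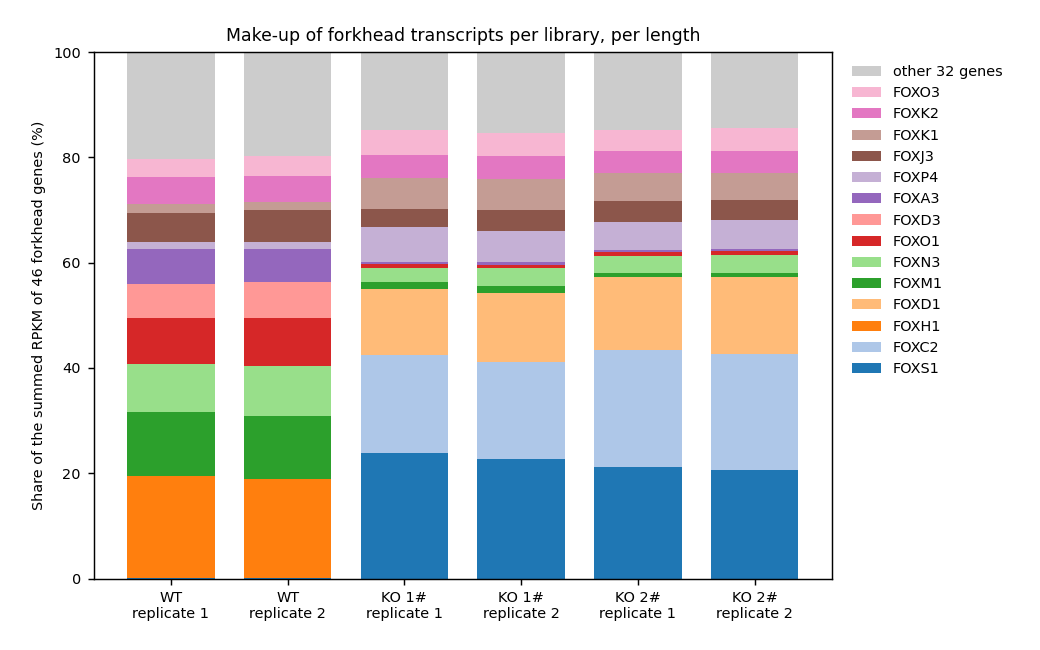
Share of the summed RPKM of the 46 forkhead genes (vertical axis, percent) in each of the 6 libraries (bars), for the 14 genes with the highest mean share and the rest together. FOXH1 holds 19.0% on average in WT and 0.00505% in the knockout libraries, while FOXS1 (22.1%), FOXC2 (20.3%) and FOXD1 (13.6%) lead in the knockout libraries.

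Most forkhead genes that could be tested changed in one direction or the other. The low-count filter kept 33 of the 46 members. Of these, 14 were called higher and 15 lower in both knockout sets against WT at an adjusted p below 0.05 (42.4% and 45.5%), where 35.8% and 41.4% of all 19660 tested genes were called higher and lower. FOXJ3, FOXO3B, FOXP3 and FOXQ1 were called in neither direction. In KO 1# alone 14 were higher and 14 lower, against 35.0% and 38.7% of all tested genes, and in KO 2# alone 14 were higher and 15 lower, against 34.6% and 39.1%. The members' shares of calls were thus close to those of all genes. Their median size of change, without regard to direction, was 3.01 on the log2 scale against 1.17 for all tested genes. The median log2 fold change itself was -0.61 for the members and -0.13 for all tested genes. A member that passed the filter through WT alone could only be called lower. One that passed through the knockout libraries alone, such as FOXC2, FOXS1 or FOXD2, could only be called higher. These counts are thus partly set by the filter. Scaled by library totals the split was 10 higher and 19 lower in KO 1#, and 10 higher and 18 lower in KO 2#. The 2 knockout sets share the WT libraries, and the values of each are given side by side below.

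**Figure D2:**
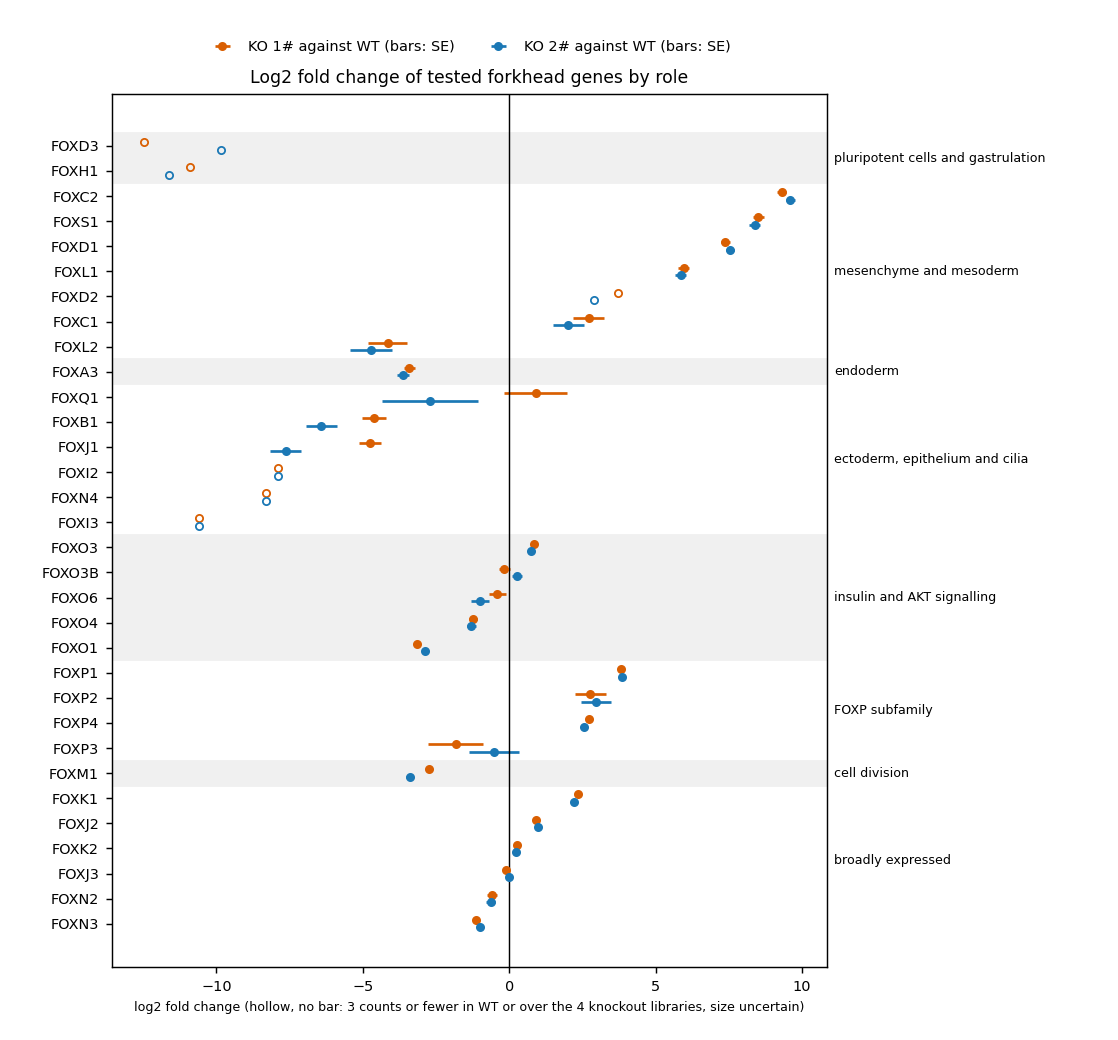
Log2 fold change against WT (horizontal axis) of the tested members reported here, grouped by role, for KO 1# and KO 2# with SE as bars. Hollow points rest on 3 counts or fewer in a group. FOXC2, FOXS1 and FOXD1 lie farthest to the right, between 7.38 and 9.60, and both knockout sets lie on the same side of 0 for every called member.

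Transcripts of the 2 members tied to pluripotent cells and gastrulation were nearly lost. Both members, FOXH1 and FOXD3, passed the low-count filter through WT alone and could only be called lower. FOXH1, the DNA-binding partner of the SMADs downstream of NODAL (ENSG00000160973), stood at 67.1 and 63.7 CPM in the WT pair, at 0.0318 and 0.0303 in the KO 1# pair and at 0.0362 and 0 in the KO 2# pair. KIFC2 overlaps it on the opposite strand, at a mean of 14.4 CPM in WT against 23.8 CPM in the knockout libraries. FOXH1 was the forkhead gene with the highest level per length in both WT libraries and had 3 counts over the 4 knockout libraries. The WT level was 2655 times the knockout level (exact 95% interval 908 to 12880, counting error only; edgeR adjusted p = 1.41e-18). FOXD3, a factor of pluripotent cells and the early neural crest (ENSG00000187140, chromosome 1, 63323041 to 63325126, plus strand), had 988 and 920 counts in the WT pair, 0 and 0 in the KO 1# pair and 1 and 0 in the KO 2# pair. Its only knockout count was in KO 2# replicate 1. FOXD3-AS1, a noncoding gene on the opposite strand that overlaps it, went from 3251 and 2909 counts in WT to 2 counts over the 4 knockout libraries, and without a stated strand setting reads of the 2 genes cannot be told apart. In bulk libraries fewer cells of a type and less RNA per cell cannot be told apart either. The summed pluripotency markers given above moved with both genes, and their part in these changes was not tested.

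The genes around FOXH1 fell with few exceptions. Of 14 tested partners and NODAL pathway genes, 11 were lower and 2 higher, against 41.4% and 35.8% of all tested genes. Their median log2 fold change was -3.14, against -0.13 for all tested genes. NODAL, the ligand, had a log2 fold change of -7.18 (adjusted p = 3.45e-12), and its feedback inhibitors LEFTY1 and LEFTY2 had -8.31 (adjusted p = 4.27e-15) and -6.47 (adjusted p = 3.89e-15). TDGF1, the NODAL co-receptor, went from 384 ± 22.9 CPM (WT, SD, n = 2) to 0.0526 ± 0.0634 CPM (knockout, SD, n = 4). GDF3, a ligand of the same receptors, was at 0 in all knockout libraries and at least 92.9-fold lower. MIXL1, a homeobox gene of the primitive streak, had 1 knockout count, and its WT level was 329.9 times the knockout level (exact 95% interval 58.7 to 13078, counting error only). Of the signal transducers, SMAD3 was lower at a log2 fold change of -1.26 and SMAD2 higher at a log2 fold change of 0.65. EOMES, GSC and FOXA2 did not pass the low-count filter.

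Most tested forkhead genes of mesenchyme and mesoderm rose. Of 9 such genes 7 were tested, 6 were higher and FOXL2 was lower, where 35.8% and 41.4% of all tested genes were called higher and lower. FOXC1, FOXC2, FOXS1 and FOXD2 passed the filter through the knockout libraries alone, and FOXL2 passed it through WT alone. The direction of any call of these genes was thus set by the filter. FOXC2, a factor of paraxial mesoderm, lymphatic vessels and mesenchyme (ENSG00000176692, chromosome 16, 86566829 to 86569728, plus strand), stood at 0.134 and 0.187 CPM in the WT pair, at 105 and 101 in the KO 1# pair and at 127 and 126 in the KO 2# pair. The WT libraries held 7 and 9 counts and the knockout libraries 3291 to 3733, so the groups were far apart. Its log2 fold change was 9.45 ± 0.14 (standard error, adjusted p = 1.47e-19), with 9.30 in KO 1# and 9.60 in KO 2#. FOXS1, known from pericytes, vascular smooth muscle and the peripheral nervous system (ENSG00000179772, chromosome 20, 31844301 to 31845619, minus strand), stood at 0.210 and 0.104 CPM in the WT pair, at 61.7 and 57.0 in the KO 1# pair and at 55.2 and 53.6 in the KO 2# pair. It was high in all 4 knockout libraries and near 0 in WT, with a log2 fold change of 8.45 ± 0.18 (standard error, adjusted p = 1.08e-17). WT held 11 and 5 counts, and the value was 9.04 without WT replicate 1. FOXD1, a factor of stromal progenitors such as those of the kidney (ENSG00000251493, chromosome 5, 73444827 to 73448527, minus strand), stood at 0.363 and 0.417 CPM in the WT pair, at 64.7 and 66.1 in the KO 1# pair and at 71.5 and 75.2 in the KO 2# pair. The groups did not overlap, and the log2 fold change was 7.46 ± 0.14 (standard error, adjusted p = 1.81e-18).

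FOXL1, a marker of mesenchymal cells beneath the gut epithelium (ENSG00000176678, chromosome 16, 86576368 to 86582160, plus strand), stood at 0.574 and 0.417 CPM in the WT pair, at 32.7 and 29.6 in the KO 1# pair and at 30.9 and 27.4 in the KO 2# pair. All knockout libraries were above both WT libraries, with a log2 fold change of 5.91 ± 0.18 (standard error, adjusted p = 1.50e-15). FOXC1, the paralogue of FOXC2 with a part in the eye, skeleton and vessels, stayed low, at 0.153 and 0.667 CPM in the WT pair, at 2.55 and 2.79 in the KO 1# pair and at 1.63 and 1.65 in the KO 2# pair. The 2 WT libraries, with 8 and 32 counts, differed by a larger ratio than any 2 knockout libraries did. Its log2 fold change of 2.36 ± 0.48 (standard error, adjusted p = 2.43e-04) was 1.64 when WT replicate 1 was left out and 3.74 when WT replicate 2 was. FOXD2, a less studied relative of FOXD1, had 1 and 2 counts in WT and between 3 and 21 in the knockout libraries. Its ratio was 11.5 (exact 95% interval 3.69 to 58.2, counting error only), and the edgeR adjusted p of 0.00939 rose to between 0.0647 and 0.155 when WT replicate 1, WT replicate 2, KO 1# replicate 2 or KO 2# replicate 1 was left out. In KO 2# alone its call held in 3 of 12 alternatives and was also lost by library totals, by totals that omit the 20 top genes, with no filter and with the DESeq2 Wald test (adjusted p from 0.0643 to 0.104), so 1 of the 14 members called higher there rests on few counts. FOXL2, the granulosa cell factor of the ovary and a gene of eyelid and pituitary development, went the other way, at 2.79 and 2.87 CPM in the WT pair, at 0.255 and 0.0606 in the KO 1# pair and at 0 and 0.202 in the KO 2# pair. It was lower in 4 of 4 knockout libraries, with a log2 fold change of -4.44 ± 0.53 (standard error, adjusted p = 6.01e-07), or -5.09 without KO 1# replicate 1 and -6.96 without KO 2# replicate 2. FOXF1 and FOXF2, factors of gut and lung mesenchyme, had at most 14 and 4 counts in any library and were not tested. The summed fibroblast markers moved with the genes that rose, as did neural crest markers (3 higher and 1 lower of 4 tested, 3.04 to 3.50 CPM summed in WT against 142 to 155 CPM in the knockout libraries, none at 0). Endothelial markers went 1 up and 3 down of 5 tested, 134 to 136 CPM summed in WT against 16.4 to 33.3 CPM in the knockout libraries, again with none at 0. The part of these cell types in the changes was not tested.

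Some members lie close to each other in the genome. FOXC2 and FOXL1 lie 6640 bases apart on chromosome 16 and both rose, while FOXF1, the third forkhead gene of that cluster, had 4 and 0 counts in the WT pair, 5 and 1 in the KO 1# pair and 14 and 6 in the KO 2# pair. FENDRR, the noncoding gene next to FOXF1, had 4 counts in KO 2# replicate 1 and 0 elsewhere. MTHFSD, which neighbours FOXC2 on the other side from FOXL1, was higher at a log2 fold change of 0.74 (adjusted p = 6.37e-05). FOXC2-AS1, antisense to FOXC2, had 0 counts in WT and 3 to 13 in the knockout libraries. On chromosome 6 FOXC1, FOXF2 and FOXQ1 lie in another cluster: FOXC1 rose, FOXF2 had at most 4 counts in a library and FOXQ1 was called in neither direction. GMDS, a sugar nucleotide enzyme gene beside FOXC1, was lower at a log2 fold change of -1.44 (adjusted p = 2.42e-10). FOXL2NB, which starts 94 bases from FOXL2 on the opposite strand, had 383 and 368 counts in WT and 4 over the 4 knockout libraries, and so fell with FOXL2. Of the 7 tested noncoding and neighbouring genes listed for forkhead loci, 2 were higher and 3 lower, against 35.8% and 41.4% of all tested genes.

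Hedgehog signalling, which acts upstream of FOXF1, FOXF2 and FOXL1 in mesenchyme, showed changes in both directions. Of 11 tested genes 7 were higher and 4 lower, against 35.8% and 41.4% of all tested genes. HHIP, which binds the ligands, was higher at a log2 fold change of 6.97 (adjusted p = 4.58e-17), and the co-receptor BOC at 2.79 (adjusted p = 1.95e-11). SUFU, which restrains GLI factors, and GAS1, a co-receptor, had log2 fold changes of 1.34 and 1.179. GLI2, a transcription factor of the pathway, was higher at a log2 fold change of 1.06. PTCH1 and GLI1, whose transcripts usually follow pathway activity, were lower at a log2 fold change of -0.81 (adjusted p = 1.94e-05) and -0.49 (adjusted p = 0.00389). The ligand genes SHH, IHH and DHH did not pass the filter, and SHH and IHH were at 0 in the knockout libraries.

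**Figure D3:**
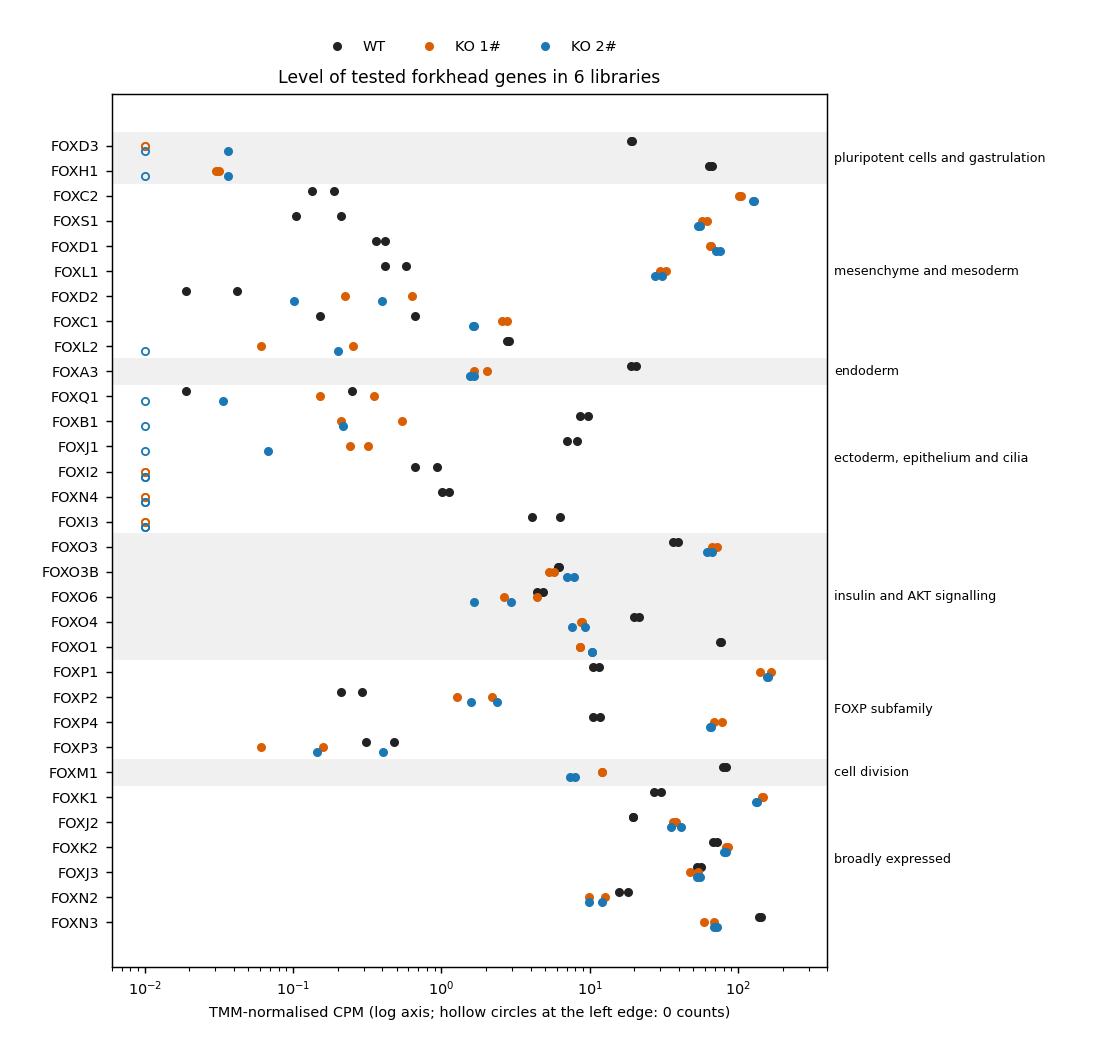
Level of each of the tested members reported here in each of the 6 libraries, in TMM-normalised CPM on a log axis, grouped by role, with libraries at 0 counts drawn as hollow circles at the left edge. WT and knockout points lie apart for FOXH1 (63.7 to 67.1 against at most 0.0362 CPM) and FOXC2 (at most 0.187 against 101 to 127 CPM) and overlap for FOXJ3, FOXO3B, FOXP3 and FOXQ1.

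Among the endoderm factors only FOXA3 could be tested, and it fell. FOXA3, a pioneer factor of liver and gut (ENSG00000170608, chromosome 19, 45863989 to 45873797, plus strand), stood at 20.4 and 19.1 CPM in the WT pair, at 2.04 and 1.67 in the KO 1# pair and at 1.67 and 1.55 in the KO 2# pair. The groups were well separated, with a log2 fold change of -3.51 ± 0.15 (standard error, adjusted p = 3.20e-13). FOXA1 had 9 and 18 counts in WT and 1 to 6 in the knockout libraries, and FOXA2 at most 4 in any library. Of 6 tested FOXA2 partners and endoderm genes 3 were higher and 1 lower, against 35.8% and 41.4% of all tested genes. GATA6, also a gene of cardiac and other mesoderm, went from 0.0478 ± 0.0676 CPM (WT, SD, n = 2) to 25.6 ± 5.15 CPM (knockout, SD, n = 4), and CER1, a secreted inhibitor made by anterior endoderm, was lower at a log2 fold change of -2.56 (adjusted p = 2.06e-06). GATA4, of heart and endoderm, was higher at a log2 fold change of 2.40 but stayed below 1 CPM on average. The definitive endoderm markers, which share GATA4 and GATA6 with that list, among others, were 3 higher of 4 tested. They summed to 0.854 to 1.17 CPM in WT against 24.1 to 32.8 CPM in the knockout libraries, with none at 0. GATA6 alone made up most of the knockout sum, so the sum does not describe these markers as a set.

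Of 13 members known from ectoderm, epithelium and cilia 7 were tested, of which 5 were lower, 1 was higher and FOXQ1 was called in neither direction. Of all tested genes 41.4% were called lower and 35.8% higher. Members such as FOXI3, FOXN4 and FOXI2, at 0 in the knockout libraries, passed the filter through WT alone and could only be called lower. The same holds for FOXB1 and FOXJ1, which had few knockout counts. FOXI3, a factor of the otic and hair placodes (ENSG00000214336, chromosome 2, 88446787 to 88452656, minus strand), had 332 and 197 counts in the WT pair, 0 and 0 in the KO 1# pair and 0 and 0 in the KO 2# pair. No knockout library held a count, and WT was at least 52.7-fold higher, taking 3 counts as the limit in each knockout library. FOXN4, a gene of retinal and spinal cord progenitors, and FOXI2, a relative of FOXI3, were also at 0 in the 4 knockout libraries. With 53 and 54 counts in WT, FOXN4 was at least 10.8-fold lower, and FOXI2, with 35 and 45, at least 8.11-fold lower. FOXB1, a factor of the diencephalon and mammillary body, stood at 9.81 and 8.64 CPM in the WT pair, at 0.541 and 0.212 in the KO 1# pair and at 0.217 and 0 in the KO 2# pair. It was low in every knockout library, and its log2 fold change of -5.51 ± 0.36 (standard error, adjusted p = 1.45e-10) was -8.05 without KO 2# replicate 1.

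FOXJ1, the master regulator of motile cilia (ENSG00000129654, chromosome 17, 76136333 to 76141299, minus strand), stood at 8.20 and 7.04 CPM in the WT pair, at 0.318 and 0.242 in the KO 1# pair and at 0 and 0.0675 in the KO 2# pair. Its log2 fold change was -6.20 ± 0.35 (standard error, adjusted p = 1.79e-11), or -7.97 without KO 2# replicate 2. RNF157-AS1, which overlaps it on the opposite strand, stayed below 1 CPM. The list of ciliary genes and regulators had 3 lower (MYB, DNAH9 and RFX3) and 0 higher genes of 11 tested, a smaller share called lower than the 41.4% of all tested genes. MYB, a factor of multiciliated cell formation and of blood cells, was lower at a log2 fold change of -4.60 (adjusted p = 4.02e-08), the axonemal dynein gene DNAH9 at -2.97 (adjusted p = 0.00305) and RFX3, a ciliary regulator, at -0.91 (adjusted p = 1.93e-05). The 4 tested ciliated cell markers, part of the same list, were called in neither direction and summed to 2.94 to 3.65 CPM in WT against 2.45 to 3.58 CPM in the knockout libraries, with TEKT1 at 0 in the knockout libraries. FOXQ1, an epithelial factor, had 1 and 12 counts in the WT pair, 11 and 5 in the KO 1# pair and 0 and 1 in the KO 2# pair, and the 3 groups could not be ordered. The 5 epithelial markers were all lower, from 980 to 998 CPM summed in WT to 292 to 332 in the knockout libraries, with none at 0. Their median log2 fold change of -7.58 was a far larger fall than that of the sum, so the sum does not describe these markers as a set. The neuroectoderm markers were 3 higher and 1 lower of 4 tested, with sums of 176 to 203 CPM in WT against 218 to 237 CPM in the knockout libraries, none at 0. Trophoblast markers were 1 higher and 2 lower of 3 tested, 9.83 to 12.1 CPM summed in WT against 0.697 to 1.178 CPM in the knockout libraries, with CGA at 0 in all libraries and GCM1 at 0 in the knockout libraries. Whether these cell types had a part was not tested.

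The FOXO factors split. FOXO1, the FOXO gene with the highest level per length in WT (ENSG00000150907, chromosome 13, 40469953 to 40666597, minus strand), stood at 75.3 and 76.5 CPM in the WT pair, at 8.59 and 8.61 in the KO 1# pair and at 10.3 and 10.4 in the KO 2# pair. Both WT libraries were over 7 times every knockout library, and the log2 fold change was -3.01 ± 0.08 (standard error, adjusted p = 3.55e-16). LINC00598, which overlaps FOXO1 on the same strand, was also lower, at -2.83 on the log2 scale at 1.00 CPM in WT. FOXO3, which acts on cell survival and ageing (ENSG00000118689, chromosome 6, 108559835 to 108684774, plus strand), stood at 36.7 and 39.5 CPM in the WT pair, at 71.9 and 66.5 in the KO 1# pair and at 61.3 and 66.7 in the KO 2# pair. It was higher in 4 of 4 knockout libraries, with a log2 fold change of 0.81 ± 0.08 (standard error, adjusted p = 2.73e-08). That rise rests on the scaling: by library totals the value was 0.07 (edgeR adjusted p = 0.390), while FOXO1 stayed lower by every scaling tried. FOXO4, on the X chromosome, stood at 21.4 and 19.95 CPM in the WT pair, at 8.85 and 8.76 in the KO 1# pair and at 9.27 and 7.62 in the KO 2# pair. Its log2 fold change was -1.26 ± 0.12 (standard error, edgeR adjusted p = 2.19e-08). All knockout libraries were below both WT libraries.

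FOXO6, a FOXO factor of brain and muscle, stood at 4.86 and 4.44 CPM in the WT pair, at 4.39 and 2.64 in the KO 1# pair and at 1.67 and 2.97 in the KO 2# pair. The highest knockout library, KO 1# replicate 1, lay just below the lower WT library. The log2 fold change was -0.70 ± 0.26 (standard error, adjusted p = 0.0194), a call lost without WT replicate 1 (-0.64) or KO 2# replicate 1 (-0.52). In KO 1# alone FOXO6 missed the threshold, at -0.41 with an adjusted p of 0.232. By library totals it was called lower there, at -1.11 (edgeR adjusted p = 0.00215), as by totals that omit the 20 top genes, at -0.79 (edgeR adjusted p = 0.0232). FOXO3B, a processed pseudogene derived from FOXO3 that lies within ZNF286B on chromosome 17, stood at 6.16 and 6.21 CPM in the WT pair, at 5.31 and 5.73 in the KO 1# pair and at 7.03 and 7.86 in the KO 2# pair. It was called in neither direction, 0.05 ± 0.16 (standard error, adjusted p = 0.771), and reads of near-identical stretches may have been split between it and FOXO3. FOXO1B, a processed pseudogene of FOXO1, had 5 and 5 counts in WT and 1 over the 4 knockout libraries and was not tested.

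The balance between FOXO1 and FOXO3 turned over. Per length FOXO1 was 2.54 and 2.40 times FOXO3 in the WT libraries, 0.148 and 0.160 times in the KO 1# pair and 0.208 and 0.193 times in the KO 2# pair. This ratio within a library does not depend on scaling between libraries. FOXO4 to FOXO3 likewise went from 1.31 and 1.13 in WT to between 0.256 and 0.339 in the knockout libraries. FOXO1 in KO 2# was 0.27 above KO 1# on the log2 scale (95% interval 0.03 to 0.51, edgeR adjusted p = 0.251) and missed the threshold.

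**Figure D4:**
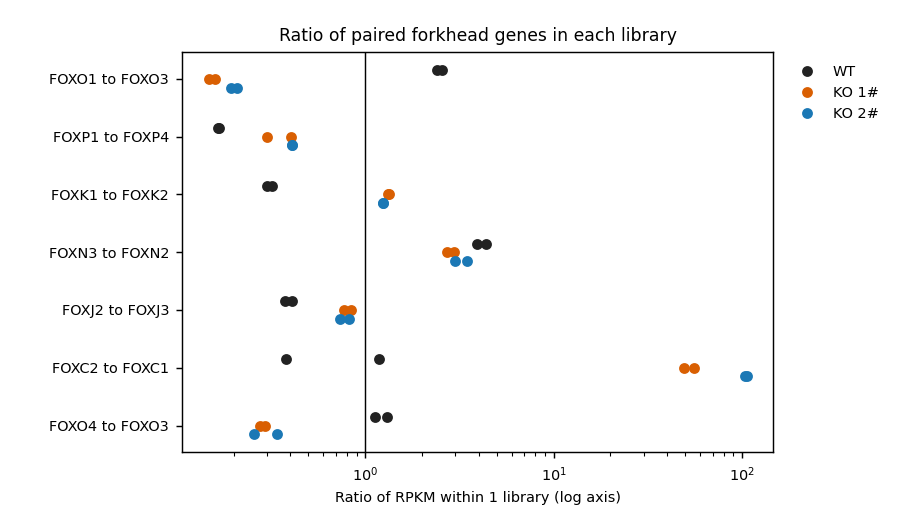
Ratio of the RPKM of 2 forkhead genes within 1 library (horizontal log axis) for 7 pairs, with each of the 6 libraries as a point. FOXO1 to FOXO3 lies at 2.40 to 2.54 in WT and at 0.148 to 0.208 in the knockout libraries, and FOXK1 to FOXK2 at 0.301 to 0.321 and 1.25 to 1.34.

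Genes that regulate FOXO proteins moved in both directions: 14 were higher and 10 lower of 27 tested, with a median log2 fold change of 0.18. Of all tested genes 35.8% were called higher and 41.4% lower, with a median of -0.13. The kinases that phosphorylate FOXO proteins and keep them out of the nucleus were among those that rose: SGK1 went from 14.5 ± 0.680 CPM (WT, SD, n = 2) to 65.2 ± 4.61 CPM (knockout, SD, n = 4), and AKT1 rose at a log2 fold change of 1.41 (adjusted p = 6.69e-12). SIRT1, a deacetylase of FOXO proteins, was lower at a log2 fold change of -1.57 (adjusted p = 1.34e-11), and INSR, the insulin receptor, at -1.27 (adjusted p = 1.63e-09). FOXO target genes were higher in 14 and lower in 8 of 23 tested, against 35.8% and 41.4% of all tested genes. Their median was 0.95. TNFSF10, the death ligand TRAIL, had 0.0382 CPM on average in WT against 33.4 ± 4.64 CPM in the knockout libraries. KLF2, a flow-induced transcription factor, went from 0.551 ± 0.249 CPM (WT, SD, n = 2) to 50.4 ± 13.8 CPM (knockout, SD, n = 4), CDKN1A, the CDK inhibitor p21, from 42.2 ± 1.13 CPM (WT, SD, n = 2) to 965 ± 146 CPM (knockout, SD, n = 4), and PIK3IP1, an inhibitor of PI3-kinase, from 3.72 ± 0.169 CPM (WT, SD, n = 2) to 37.6 ± 5.14 CPM (knockout, SD, n = 4). FBXO32, a ubiquitin ligase of muscle atrophy, was higher at a log2 fold change of 2.69 (adjusted p = 2.74e-07). The proapoptotic BCL2L11 was lower at a log2 fold change of -2.48 (adjusted p = 3.25e-10). These targets are also controlled by other factors, and RNA counts do not measure FOXO phosphorylation or location.

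FOXM1 and the mitotic genes known as its targets fell together. FOXM1 (ENSG00000111206, chromosome 12, 2857681 to 2877155, minus strand) stood at 82.7 and 79.5 CPM in the WT pair, at 12.1 and 12.1 in the KO 1# pair and at 8.01 and 7.35 in the KO 2# pair. WT was high in both libraries, KO 1# intermediate and KO 2# lowest, with no overlap between the 3 groups. The log2 fold change of both sets was -3.07 ± 0.08 (standard error, adjusted p = 2.76e-16). RHNO1 and ITFG2, on the opposite strand and overlapping FOXM1, had changes of -1.36 and 0.69. Of 20 tested FOXM1 target genes 19 were lower and 1, the phosphatase gene CDC25B, was higher at a log2 fold change of 0.19. Their median log2 fold change was -3.22, against -0.13 for all tested genes, of which 41.4% were called lower and 35.8% higher. CENPF, a kinetochore protein, went from 299 ± 10.8 CPM (WT, SD, n = 2) to 12.3 ± 3.58 CPM (knockout, SD, n = 4), BUB1B, of the spindle checkpoint, from 155 ± 2.34 CPM (WT, SD, n = 2) to 7.60 ± 2.08 CPM (knockout, SD, n = 4), and TOP2A, topoisomerase II alpha, from 445 ± 14.3 CPM (WT, SD, n = 2) to 31.5 ± 11.6 CPM (knockout, SD, n = 4). AURKB and CDK1, mitotic kinases, were lower at a log2 fold change of -3.90 (adjusted p = 5.09e-16) and -3.88 (adjusted p = 3.08e-17). The MuvB, MYBL2 and DREAM subunits were lower in 8 and higher in 3 of 12 tested, against 41.4% and 35.8% of all tested genes. MYBL2, which recruits FOXM1 with MuvB, was lower at a log2 fold change of -4.16 (edgeR adjusted p = 1.78e-18). LIN9, a MuvB subunit, was lower at -1.89 (edgeR adjusted p = 1.44e-08). RBL2, the p130 subunit of the repressive DREAM complex, was higher at a log2 fold change of 0.63 (edgeR adjusted p = 3.40e-06). LIN37, another MuvB subunit, RBL1, the p107 subunit, and E2F5, a repressive E2F factor, had log2 fold changes of 2.23, -1.42 and -1.24.

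FOXM1 and FOXC2 were the members called different between the 2 knockout sets. In KO 2# against KO 1# 1 member was higher and 1 lower of 33 tested, where 1.58% of all tested genes were called higher and 2.28% lower. FOXM1 was lower in KO 2#, at a log2 value of -0.66 ± 0.12 (standard error, adjusted p = 0.00238). Of its 20 tested target genes, 10 were lower in KO 2# and 1, CENPF, was higher at a log2 fold change of 0.73 (adjusted p = 2.39e-04). TOP2A was lower at a log2 fold change of -0.96 (adjusted p = 9.19e-07), CENPA, the centromeric histone, at -1.37 (adjusted p = 0.00178), and CDK1 at -0.84 (adjusted p = 8.42e-04). MYBL2 was lower at a log2 fold change of -1.07 (adjusted p = 1.21e-05). FOXC2 was higher in KO 2#, at a log2 value of 0.30 ± 0.07 (standard error, adjusted p = 0.0309), a call that was lost when libraries were scaled by totals (0.25, adjusted p = 0.0857) or by totals that omit the 20 top genes (0.27, adjusted p = 0.0597), and when KO 2# replicate 1 (adjusted p = 0.243) or replicate 2 (adjusted p = 0.216) was left out. FOXJ1 and FOXB1 had fewer counts in KO 2#, with log2 values of -2.89 (adjusted p = 0.0885) and -1.80 (adjusted p = 0.277) that missed the threshold. POU5F1, SOX2 and DPPA4, of the pluripotent stem cell markers, were also lower in KO 2# than in KO 1#, at -3.71, -1.78 and -0.61, and their part in the difference was not tested.

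Of the FOXP subfamily, whose members repress as dimers, 3 of 4 tested rose, where 35.8% of all tested genes were called higher. FOXP1, a factor of B cells, heart, lung and neurons with a stem cell isoform made by splicing (ENSG00000114861, chromosome 3, 70952817 to 71583993, minus strand), stood at 11.5 and 10.5 CPM in the WT pair, at 141 and 167 in the KO 1# pair and at 158 and 159 in the KO 2# pair. Every knockout library was over 12 times either WT library, with a log2 fold change of 3.83 ± 0.09 (standard error, adjusted p = 6.31e-17). Counts per gene do not separate its isoforms. FOXP1-IT1, a noncoding gene within FOXP1, was called higher, at a log2 fold change of 2.43 (edgeR adjusted p = 0.0355). It had only 5 and 1 counts in the WT pair, 11 and 10 in the KO 1# pair and 2 and 18 in the KO 2# pair. As it lies on the same strand as FOXP1, its reads may come from FOXP1 transcripts. FOXP4, expressed in lung and gut (ENSG00000137166, chromosome 6, 41546426 to 41602384, plus strand), stood at 11.7 and 10.6 CPM in the WT pair, at 78.5 and 69.2 in the KO 1# pair and at 64.9 and 65.8 in the KO 2# pair, a log2 fold change of 2.64 ± 0.09 (standard error, adjusted p = 1.41e-14). Its knockout libraries were also all above WT. FOXP2, a gene of speech-related circuits, stayed low, at 0.210 and 0.292 CPM in the WT pair, at 1.27 and 2.18 in the KO 1# pair and at 1.59 and 2.36 in the KO 2# pair. It was higher in 4 of 4 knockout libraries, with a log2 fold change of 2.87 ± 0.48 (standard error, adjusted p = 3.04e-05). FOXP3, the factor of regulatory T cells, had 25 and 15 counts in WT and 2 to 12 in the knockout libraries and was called in neither direction, -1.17 ± 0.73 (standard error, adjusted p = 0.155). By library totals FOXP3 was called lower, at -1.89 for both sets (edgeR adjusted p = 0.0230) and -2.52 in KO 1# (edgeR adjusted p = 0.0200). In KO 2# alone it stayed uncalled under every scaling. CCDC22, which overlaps FOXP3 on the opposite strand, averaged 9.41 CPM in WT, and without a stated strand setting reads of the 2 genes cannot be told apart. Blood markers were 1 higher and 1 lower of 3 tested and summed to 0.612 to 0.917 CPM in WT against 0.605 to 1.25 CPM in the knockout libraries, with HBB at 0 throughout.

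Of 6 broadly expressed members 3 rose, 2 fell and FOXJ3 was called in neither direction. Of all tested genes 35.8% were called higher and 41.4% lower. FOXK1, a repressor of autophagy genes that also supports glycolysis (ENSG00000164916, chromosome 7, 4682309 to 4771443, plus strand), stood at 30.3 and 26.9 CPM in the WT pair, at 148 and 145 in the KO 1# pair and at 135 and 133 in the KO 2# pair. All 4 knockout libraries were above WT, with a log2 fold change of 2.29 ± 0.07 (standard error, adjusted p = 4.64e-15). FOXK2, its paralogue, stood at 72.0 and 68.2 CPM in the WT pair, at 85.5 and 82.4 in the KO 1# pair and at 82.6 and 81.0 in the KO 2# pair. Its change of 0.24 ± 0.07 (standard error, adjusted p = 0.00269) was reversed by other scalings: it became -0.49 by library totals and -0.15 by totals that omit the 20 top genes, and its edgeR adjusted p was 0.0510 without WT replicate 2. WDR45B overlaps FOXK2 on the opposite strand at 93.9 CPM in WT. FOXK1 was 0.321 and 0.301 times FOXK2 per length in WT and 1.25 to 1.34 times in the knockout libraries, so the pair changed order whatever the scaling. FOXJ2, a factor of germ cells and other tissues, stood at 19.6 and 19.5 CPM in the WT pair, at 36.4 and 38.001 in the KO 1# pair and at 41.2 and 35.4 in the KO 2# pair, higher at a log2 fold change of 0.95 ± 0.09 (standard error, adjusted p = 3.56e-08). By library totals FOXJ2 was at 0.22 in KO 1# (edgeR adjusted p = 0.0626) and 0.21 in KO 2# (edgeR adjusted p = 0.0771), which missed the threshold. FOXJ3, its paralogue, stood at 52.8 and 56.6 CPM in the WT pair, at 47.5 and 53.6 in the KO 1# pair and at 55.1 and 53.1 in the KO 2# pair and was called in neither direction, -0.07 ± 0.08 (standard error, adjusted p = 0.44). By library totals FOXJ3 was called lower, at -0.80 (edgeR adjusted p = 1.17e-08), as it was by totals that omit the 20 top genes, at -0.46 (edgeR adjusted p = 2.10e-05).

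FOXN3, a repressor linked to the DNA damage checkpoint (ENSG00000053254, chromosome 14, 89124871 to 89619149, minus strand), had the highest CPM of the family in WT, at 138 and 142 CPM in the WT pair, at 59.1 and 68.9 in the KO 1# pair and at 69.0 and 72.5 in the KO 2# pair. It was lower in 4 of 4 knockout libraries, with a log2 fold change of -1.06 ± 0.07 (standard error, adjusted p = 1.08e-10). FOXN2, of the same class, stood at 15.7 and 18.1 CPM in the WT pair, at 9.87 and 12.7 in the KO 1# pair and at 9.85 and 12.0 in the KO 2# pair, lower at a log2 fold change of -0.61 ± 0.13 (standard error, adjusted p = 4.60e-04). FOXN3 stayed 2.70 to 3.48 times FOXN2 per length in the knockout libraries, against 4.36 and 3.90 in WT.

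The cofactors of FOXP and FOXK proteins were 5 higher and 7 lower of 15 tested, shares close to the 35.8% and 41.4% of all tested genes, with a median of -0.08, against -0.13 for all tested genes. ASXL1, a partner of the deubiquitinase BAP1 to which FOXK1 and FOXK2 bind, went from 25.7 ± 1.35 CPM (WT, SD, n = 2) to 267 ± 16.8 CPM (knockout, SD, n = 4), a log2 fold change of 3.38 (adjusted p = 8.02e-18). DVL3, which FOXK proteins carry into the nucleus, was higher at a log2 fold change of 1.19 (adjusted p = 1.92e-11). MTA1, of the NuRD complex, CTBP2, a corepressor, and SIN3A, a corepressor scaffold, were lower, at -1.26, -1.18 and -1.15. BAP1 itself was higher at a log2 fold change of 0.27 (adjusted p = 0.00172).

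**Figure D5:**
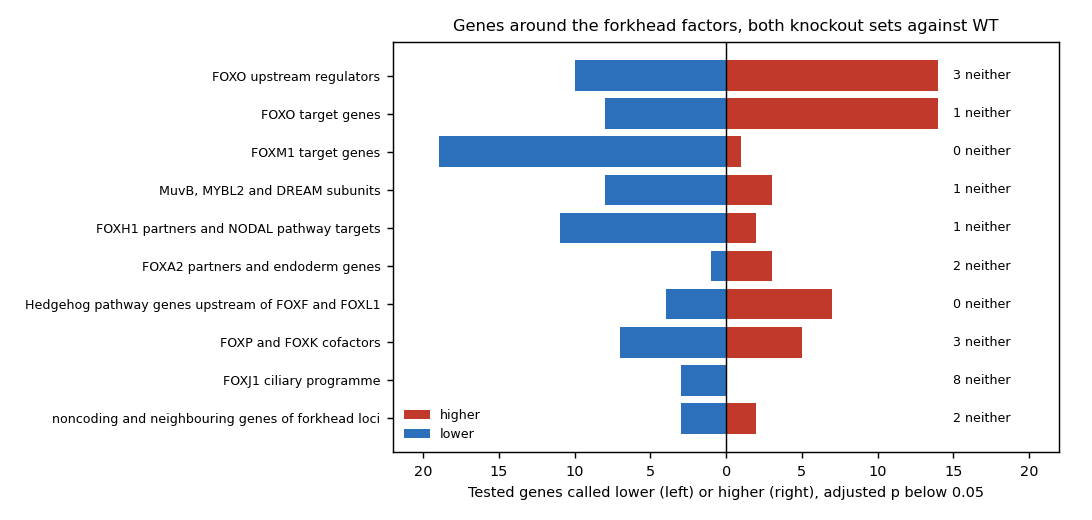
Number of tested genes called lower (bars to the left) or higher (bars to the right) in both knockout sets against WT in each of 10 lists of genes around the forkhead factors, with the number called in neither direction beside each bar. FOXM1 target genes stand at 19 lower and 1 higher, and FOXO target genes at 8 lower and 14 higher. Of all tested genes 41.4% were called lower and 35.8% higher.

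The 13 members below the filter were FOXA1, FOXA2, FOXB2, FOXD4, FOXE1, FOXE3, FOXF1, FOXF2, FOXI1, FOXN1, FOXO1B, FOXR1 and FOXR2. Their highest count in any library was 18, for FOXA1 in WT replicate 2. FOXI1, a factor of ion-transporting cells, had 4 and 8 counts in WT and 0 in the knockout libraries, and FOXB2, a relative of FOXB1, had 6 and 1 in WT and 0. FOXR1, a germ line gene, had 4 and 13 counts in WT and 2 over the 4 knockout libraries. FOXD4, which has near-identical copies among which reads can be split, had 4 and 2 counts in WT and 3 to 11 in the knockout libraries. At these counts no difference was tested.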

How the data were processed

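The deposited table holds raw read counts per gene for 6 libraries. Per the submitters' processing notes they used genome build GRCh38 and, with no roles named, HTSeq 0.6.0, DESeq 1.18.1, HISAT2 2.0.4 and SAMtools 1.3.1. Neither strand setting nor annotation release was found in the sources read. Of 58395 rows 58275 were found by gene ID in GENCODE 29, which gave coordinates, exon lengths and gene types.

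Counts were fitted with edgeR 4.0.16 (R 4.3.3): TMM scaling, a filter with a minimum count of 10 (19660 genes kept), 1 quasi-likelihood fit with the 3 groups (3 residual degrees of freedom, common biological coefficient of variation 0.0829), two-sided tests and Benjamini-Hochberg adjustment over all tested genes, called below 0.05. Folds against groups at 0 use 3 counts per library, and ratios with 1 to 3 counts carry exact Clopper-Pearson 95% intervals; both cover counting error only. The fitting code was run on simulated counts in which few genes changed, in equal numbers up and down. In these data most tested genes were called, so that run does not test the scaling used here. A first limit on the recovery of changes failed for genes of low count and was replaced. Alternatives were other scalings and filters, DESeq2 1.42.0, a replicate block and leaving out each library. Every forkhead member is accounted for, and up to 5 genes past the threshold were named per list by size of change. Any further list gene named was chosen after its values were seen. Members and gene lists were chosen with earlier results of these data known. Deviations of same-numbered replicates were nearly uncorrelated between groups, which does not exclude a shared replicate effect. A few genes of the family and the lists are counted but not reported by name here.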

Additional observations from a re-analysis of the deposited data

Results flagged for a closer look

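FOXC2 and FOXM1 differed between the 2 knockout sets by a test of that difference itself. FOXC2 had a log2 fold change of 0.30 in KO 2# against KO 1# (edgeR adjusted p = 0.0309) and was higher in both KO 2# libraries than in both KO 1# libraries. That call was lost by library totals (adjusted p = 0.0857), by totals that omit the 20 top genes (adjusted p = 0.0597) and when either KO 2# library was left out (adjusted p = 0.243 and 0.216). FOXM1 had a log2 fold change of -0.66 in the same comparison (edgeR adjusted p = 0.00238) and was lower in both KO 2# libraries. That call was kept in 13 of 13 alternatives, at log2 values from -0.72 to -0.59, but the highest adjusted p among them lay just below the threshold.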

How the results depend on the processing

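Of 1695 recomputed values of the tested members, 1632 stayed on the same side of the threshold (1605 with the same sign, and 27 that changed sign while uncalled), 36 lost a call, 18 gained one and 9 reversed. With library totals the median log2 fold change of all genes shifted by -0.73, with totals that omit the 20 top genes by -0.40, and with DESeq2 size factors by -0.05. Values under these scalings are not given for the genes of the lists or for neighbouring genes. Their rises smaller than the first shift depend on the scaling, among them those of SMAD2, RBL2, BAP1, CDC25B and ITFG2. The same holds for the median of the genes that regulate FOXO proteins. All reversals of called values came from the first 2 of these scalings. By totals FOXK2 was at -0.49 (both sets), -0.45 (KO 1#) and -0.54 (KO 2#), FOXO3B at -0.68 (both sets) and -0.49 (KO 2#), and FOXO3 at -0.0093 (KO 2#). With the 20 top genes omitted FOXK2 was at -0.15, -0.12 and -0.19. BRPF1, added to these alternatives after the data were seen, was at -0.66 (both sets) and -0.48 (KO 1#) by totals and at -0.32 (both sets) with the 20 top genes omitted. With TMM and the replicate number as a block, BRPF1 was instead called higher in KO 1#, at 0.23 (edgeR adjusted p = 0.0373). In KO 2# it was at -0.06 under that block (edgeR adjusted p = 0.577) and at -0.83 by totals. In KO 1# it was at 0.38 without WT replicate 1 and at 0.08 without WT replicate 2. FOXJ3 was called lower by both scalings by totals in each comparison with WT, and FOXJ2 lost its calls by totals in KO 1# and KO 2#. The calls of 12 higher and 19 lower members by totals (both sets) compare with 4299 higher and 11779 lower of all genes, against 7043 and 8145 with TMM. In KO 2# against KO 1# the number of members called higher was 0 with either scaling by totals and 0 to 2 when single libraries were left out, and the number called lower was 1 to 2. Low counts limit FOXD2, FOXQ1, FOXP3 and the untested members.

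With the replicate number as a block, members called lower in KO 2# against KO 1# numbered 2, FOXJ1 being added (-2.88, edgeR adjusted p = 0.0426), and FOXD2 lost its call in KO 2# (edgeR adjusted p = 0.0642). No other member call changed under the block. Over all tested genes, calls in KO 2# against KO 1# went from 311 higher and 448 lower to 804 and 830 under the block. The correlations of same-numbered deviations between groups were 0.0336, 0.011 and 0.0269. Such correlations cannot exclude an effect shared by same-numbered libraries.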

Other observations

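Around FOXS1, within 50 kb on chromosome 20, other genes also changed, chosen here after their values were seen. MYLK2, a muscle myosin light chain kinase, had a log2 fold change of 5.28 (edgeR adjusted p = 3.75e-10), TTLL9, a tubulin ligase family gene, 3.99 (adjusted p = 7.56e-04), and DUSP15, a phosphatase gene, 2.45 (adjusted p = 1.91e-07). TPX2, a spindle assembly gene, was lower, at -1.60 (adjusted p = 9.97e-14).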
